A study of Mus musculus with 20 samples.

Results

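The genes described here were expressed in uninduced pre-B cells and were almost shut off 24 h after IKZF1 was brought into the nucleus. They were chosen by their values. Counts were divided by each library's total and expressed per 1000000 (CPM), the 2 replicates of a time point were averaged, and a gene was taken if it had at least 3 CPM at 0 h and at most 6% of that level at 24 h. Of 56239 genes counted, 10057 reached 3 CPM at 0 h and 115 of these (1.14%) also met the 24 h limit. Igll1, Vpreb1, Ramp1, Itga5, Gfra2, Myc and Ccnd2 were left out by name, although Myc, at 6.61% of its 0 h level, did not meet the limit. This left 109 genes. Because the 0 h and 24 h values chose them, these values are given without a test, and the question is how much of the fall was already done at 2 h and at 12 h.

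IKZF1 (Ikaros) is a zinc finger transcription factor of lymphoid cells that is required for B cell development, acts at enhancers and promoters, and binds corepressor complexes such as NuRD. At the pre-B stage it limits proliferation, and its gene is often mutated in B cell acute lymphoblastic leukemia. In the construct used here it is fused to ERt2, a mutant estrogen receptor domain whose ligand 4-hydroxytamoxifen (4-OHT) sends the protein from the cytoplasm into the nucleus.

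The cells were B3, a mouse pre-B cell line, transduced with a retrovirus encoding Ikaros-ERt2 and sorted as a pool by the GFP of the vector. All 20 libraries, the uninduced ones included, came from cells with this genotype. The 0 h cells had no treatment, and the others received 500 nM 4-OHT for 0.5, 1, 2, 6, 12, 15, 18, 21 or 24 h, with 2 replicates per time point. RNA bound to chromatin, which is rich in transcripts still being made, was isolated and sequenced after removal of ribosomal RNA. Neither untreated cells at later times nor 4-OHT-treated cells without the construct were analysed here, so time in culture, 4-OHT itself and IKZF1 cannot be told apart. The labels do not say that replicates were separate cultures, so the p-values measure the spread between these samples. In bulk RNA, fewer cells of a kind and less RNA per cell cannot be told apart.

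Library totals ran from 33296158 to 46868954 counts around a median of 40943260. Of 10 pre-B markers, 8 reached 1 CPM at 0 h, while Rag1 and Rag2 were at 0, and the summed markers of T cells, myeloid cells, red cells and fibroblasts stayed at or below 1.70 CPM in the 0 h libraries. Replicates differed little more than counting noise at most time points, with a chi-square per degree of freedom between 1.29 and 2.80, but it was 11.2 at 12 h, 16.9 at 18 h and 5.33 at 21 h, so values at these time points carry more replicate spread. Scaling also moved with time, since TMM normalization, which ignores the most changed genes, gave the 24 h libraries an effective size that was smaller by 0.26 on the log2 scale than their totals, relative to 0 h, and the 21 h libraries one smaller by 0.23. Levels at these times are therefore higher under TMM than under totals, and 84 of the 109 genes met both limits under it.

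At 2 h the median gene of the set had done 78.7% of its fall, with quartiles of 43.2% and 91.7%. Replicate 1 gave 78.2% and replicate 2 gave 75.5%. The share is the drop in mean CPM since 0 h divided by the drop at 24 h, so it shares its 0 h and 24 h libraries with the choice of genes. At 12 h the median was 90.6%, with quartiles of 78.8% and 97.2%, and the replicates gave 92.0% and 89.5%. At 0.5 h the median was 13.8%, with 31 genes above their 0 h mean, 64 with both libraries under both 0 h libraries, and 8 that had done at least 50%. The share of all genes with libraries so ordered is not given here. The median was 57.2% at 1 h, 88.2% at 6 h and 99.4% at 21 h. At 2 h, 53 genes had done at least 80% of the fall, 31 genes less than 50%, and 6 of those stood above their 0 h level. At 12 h, 78 genes had done at least 80%, and 4 genes, Ccne1, Ccnb1ip1, E2f8 and Ung, less than 50%. As a median over the set, the level was 24.5% of 0 h at 2 h and 11.9% at 12 h, while over all 10057 expressed genes it was 98.4% and 95.6%. At 21 h, relative to the same 0 h mean that served to choose the genes, 79 of the 109 (72.5%) lay at or under 6% of 0 h.

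**Figure D1:**
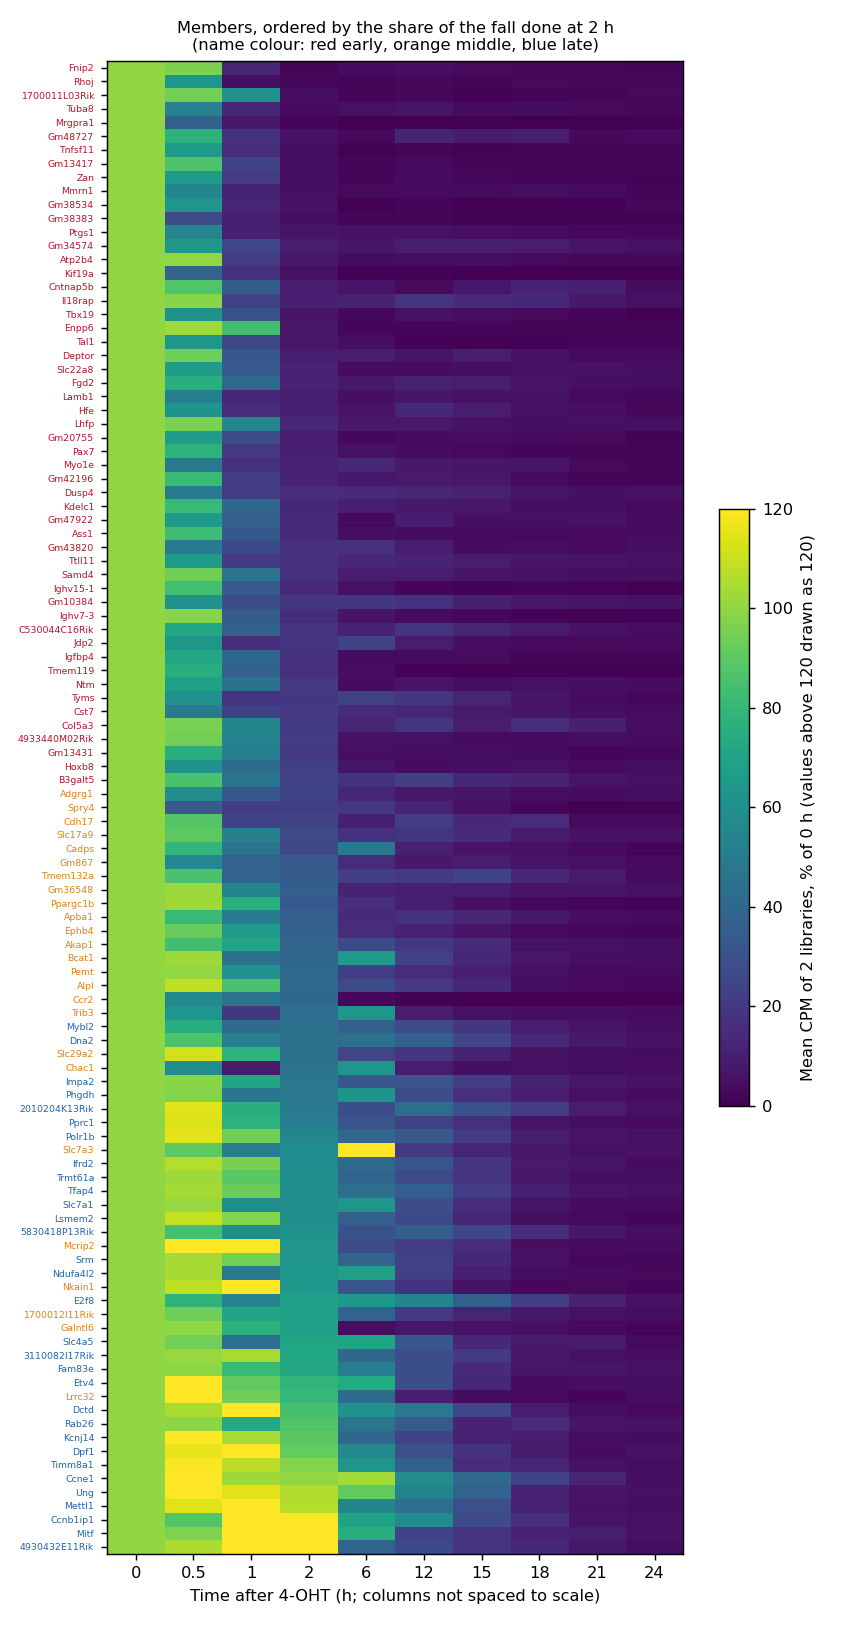
Mean CPM of the 2 libraries at each time point as a percent of the 0 h mean, for all 109 genes (rows) at 10 time points (columns, not spaced to scale), ordered by the share of the fall done at 2 h. Values above 120% are drawn as 120%. Rows at the top were dark by 1 h or 2 h, and those at the bottom stayed near or above the 0 h level to 2 h and darkened after that.

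By this share the genes were divided into 53 early genes (at least 80% of the fall done at 2 h), 25 middle genes (80% reached between 2 h and 12 h) and 31 late genes (less than 80% done at 12 h). The time at which 50% of the fall was first reached, by straight lines between time points, had a median of 0.728 h in early, 0.993 h in middle and 4.38 h in late genes, and reached 13.1 h for Ccne1. The classes are a description, since they were cut from the same values, and they depend on the limit. A limit of 70% gave 58 early, 38 middle and 13 late genes, and a limit of 90% gave 31, 28 and 50.

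**Figure D2:**
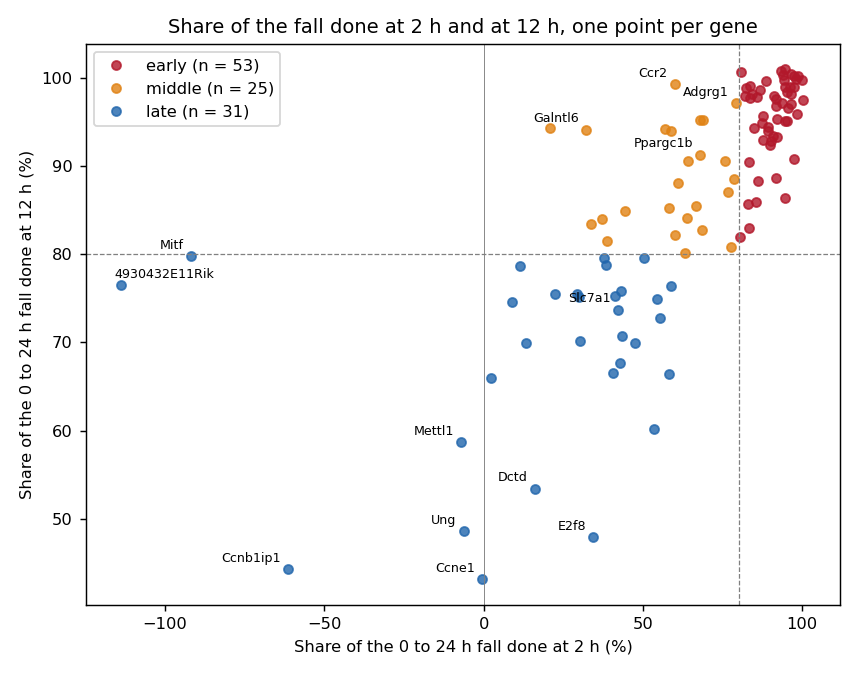
Share of the 0 to 24 h fall that each gene had done at 2 h (horizontal axis, %) against the share done at 12 h (vertical axis, %), with 1 point per gene and the 80% cuts as dashed lines. Early genes crowd at the upper right, 4930432E11Rik, Mitf and Ccnb1ip1 lie far to the left because they stood above 0 h at 2 h, and Ccne1 lies lowest, at 43.1% done at 12 h.

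The steps between time points that the choice of genes did not use were tested gene by gene. A set chosen for its fall by 24 h must fall somewhere on the way, so shares above those of all genes are partly built in. The counts therefore describe when these genes fell, not whether they fell more than others. Here edgeR's quasi-likelihood test was fitted to all genes and libraries, and calls were made at adjusted p under 0.01 with more than 2-fold change. Every one of the 109 genes passed the filter on low counts, with 67 at 10 or more counts in every library and 42 below that in some library. The choice by 0 h level largely fixed this, since 10 counts in 2 libraries were enough. Passing therefore does not show that a gene had many counts in the later steps. From 0.5 h to 2 h, 72 of the 109 genes fell, where 5.41% of all 16601 genes tested did, and DESeq2 also called 72. At an unadjusted p under 0.05 with no fold limit, 105 of the 109 were lower and 3 higher. The share of all genes at that looser cut is not given here, so these counts have no background. From 2 h to 12 h, 54 genes fell and Fnip2 rose, against 4.63% and 7.85% of all genes. From 12 h to 21 h, 62 genes fell and Cntnap5b rose, against 6.49% and 5.19%. The median log2 change of the set was -1.60 in the first of these steps, -1.04 in the second and -1.40 in the last, while that of all genes was 0.00, 0.02 and -0.02. Scaled to totals alone, 73 genes fell in the last step. Levels of all genes at 21 h are lower under that scaling, and the share of all genes called under it is not given here. The 73 is therefore not read as an excess.

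**Figure D3:**
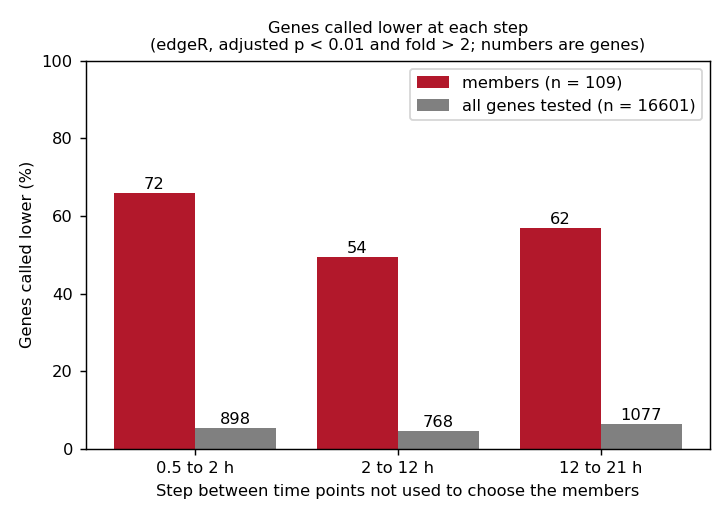
Percent of genes called lower (edgeR, adjusted p under 0.01 and more than 2-fold) in 3 steps between time points not used to choose the genes, for the 109 genes and for all 16601 genes tested. The numbers of genes stand above the bars. In each step the set's share was higher than that of all genes, which the choice of genes for their fall by 24 h partly fixed.

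Genes differed in the steps at which they fell. Of the 109, 24 fell only from 0.5 h to 2 h, 24 fell in both later steps but not in the first, 20 fell in the first and last, 18 in the first and second, 10 in the last only, 8 in every step and 3 in the second only. The remaining 2 were Fnip2 and Cntnap5b, each with a step upward. The shares of all genes with these patterns are not given here, so the counts describe this set only. Against the 0 h libraries, which are shared with the choice of genes, 77 genes were called lower and 4930432E11Rik higher at 2 h, beside 6.91% and 6.25% of all genes, and 105 were called lower at 12 h, beside 9.92%. The 4 not called at 12 h were Ccne1, Ccnb1ip1, E2f8 and Ung, with log2 changes between -0.76 and -0.89.

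Of 9 genes sorted as receptors, ligands or other surface proteins, 5 were early, 4 middle and 0 late. Mrgpra1 (ENSMUSG00000050650, chr7:47334875-47354240 in GRCm38), a Mas-related G protein-coupled receptor, measured 69.9 and 72.1 CPM in the 2 libraries at 0 h, 27.2 and 25.96 CPM at 0.5 h, 6.23 and 5.68 CPM at 1 h, 1.35 and 1.44 CPM at 2 h, 0.0299 and 0.183 CPM at 12 h and 0.0263 and 0.0472 CPM at 24 h. At 24 h it had the lowest percent of its 0 h level of the set, 0.0518%, with 1 and 2 raw counts in the 2 libraries, and its step from 0.5 h to 2 h had a log2 change of -4.25 ± 0.121 (SE) with an adjusted p of 2.91e-17. Tnfsf11, which encodes the cytokine RANKL, held 31.2 and 29.8 CPM at 0 h, 20.4 and 19.6 CPM at 0.5 h, 1.35 and 1.29 CPM at 2 h and 0.736 and 0.449 CPM at 24 h. Its libraries at 0.5 h and 2 h did not overlap, and the step was -3.92 ± 0.123 on the log2 scale (adjusted p 1.54e-16). Il18rap, the accessory chain of the interleukin 18 receptor, still stood at 38.9 and 38.05 CPM at 0.5 h against 38.4 and 39.7 CPM at 0 h, then at 4.35 and 4.03 CPM at 2 h. It held 7.06 and 7.28 CPM at 12 h, so its level there lay above that at 2 h, but the step stayed under the 2-fold limit (0.79 ± 0.0980 on the log2 scale, adjusted p 5.68e-07). Tmem119, a membrane protein used as a microglia marker, went from 43.1 and 41.9 CPM at 0 h to 7.08 and 7.23 CPM at 2 h, 0.598 and 0.497 CPM at 12 h and 0.158 and 0.189 CPM at 24 h, and fell in both the first step (-2.17 ± 0.0717) and the second (-3.69 ± 0.145).

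The middle genes of this group include Ccr2, Adgrg1 and Ephb4. Ccr2, a chemokine receptor of monocytes, came down in 2 parts. It measured 30.7 and 30.4 CPM at 0 h, 17.5 and 17.2 CPM at 0.5 h, 14.4 and 14.01 CPM at 1 h, 12.8 and 11.6 CPM at 2 h, 0.763 and 0.790 CPM at 6 h and 0.299 and 0.157 CPM at 12 h. The step from 0.5 h to 2 h stayed under the 2-fold limit, at -0.51 ± 0.0797 (adjusted p 1.28e-05), whereas that from 2 h to 12 h was -5.74 ± 0.179 (adjusted p 2.14e-16), and at 24 h the 2 libraries held 1 and 1 raw counts. Adgrg1, an adhesion G protein-coupled receptor also known as GPR56, missed the early class by a small margin, with 79.3% of its fall done at 2 h. Its libraries read 499 and 489 CPM at 0 h, 120.2 and 122 CPM at 2 h, 36.2 and 38.4 CPM at 12 h and 24.5 and 23.4 CPM at 24 h, and it fell in the first 2 of the tested steps, with log2 changes of -1.26 and -1.69. Ephb4, an ephrin receptor kinase, had 37.5% of its 0 h level left at 2 h and 11.5% at 12 h.

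The matrix and adhesion genes were lost early, with 7 of 8 in the early class and a median of 88.2% of the fall done at 2 h. Lamb1, the laminin beta 1 chain, measured 56.7 and 56.01 CPM at 0 h, 29.5 and 29.1 CPM at 0.5 h, 5.45 and 6.03 CPM at 2 h, 3.71 and 4.22 CPM at 12 h and 1.42 and 1.39 CPM at 24 h, with a step of -2.35 ± 0.0832 from 0.5 h to 2 h (adjusted p 1.22e-15). The libraries of the 2 time points were far apart. Mmrn1, which encodes the secreted carrier protein multimerin 1, went from 45.8 and 46.98 CPM to 2.40 and 2.32 CPM between 0 h and 2 h. Col5a3, a fibrillar collagen chain, was low throughout, at 4.17 and 3.46 CPM at 0 h and 0.523 and 1.05 CPM at 2 h. Igfbp4, a secreted binding protein of insulin-like growth factors, was likewise low, at 3.40 and 3.86 CPM at 0 h and 0.689 and 0.562 CPM at 2 h, with 2 and 3 raw counts in the 24 h libraries. Cntnap5b, a neurexin family adhesion protein, was the gene that rose in the last tested step. Its libraries held 72.3 and 76.8 CPM at 0 h, 7.11 and 6.57 CPM at 2 h, 2.66 and 1.91 CPM at 12 h, 7.82 and 9.09 CPM at 18 h, 7.93 and 7.90 CPM at 21 h and 3.10 and 2.90 CPM at 24 h. All these later values were far below 0 h, and the rise from 12 h to 21 h was 2.03 ± 0.129 (adjusted p 1.16e-11), between time points whose replicates differed more than others.

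Of 14 genes sorted as signaling or cytoskeletal proteins, 9 were early, 4 middle and 1, the small GTPase gene Rab26, late. Rhoj, a small GTPase, was almost complete at 1 h, with 8.82 and 8.73 CPM at 0 h, 5.76 and 5.27 CPM at 0.5 h, 0.469 and 0.279 CPM at 1 h, 0.165 and 0.293 CPM at 2 h and 0.184 and 0.260 CPM at 24 h. Fnip2, a partner of folliculin in nutrient signaling, had the largest share at 2 h. It measured 56.7 and 54.9 CPM at 0 h, 53.9 and 53.4 CPM at 0.5 h, 6.64 and 7.10 CPM at 1 h, 1.24 and 1.20 CPM at 2 h, 2.14 and 2.35 CPM at 6 h and 2.75 and 2.49 CPM at 12 h, so that it passed from near its starting level at 0.5 h to its lowest level at 2 h, and then rose from 2 h to 12 h (log2 change 1.11 ± 0.151, adjusted p 1.94e-06), to 4.70% of 0 h. Tuba8, an alpha tubulin, and Kif19a, a kinesin motor, had 4.14% and 5.57% of their 0 h level left at 2 h, and Kif19a had 1 and 0 raw counts in the 24 h libraries. Dusp4, a phosphatase that removes activating phosphates from MAP kinases, read 74.7 and 72.4 CPM at 0 h, 35.6 and 36.7 CPM at 0.5 h, 12.2 and 10.5 CPM at 2 h and 4.34 and 4.23 CPM at 24 h. Spry4, an inhibitor of receptor tyrosine kinase signaling, was among the lowest of the set at 0.5 h, at 34.7% of 0 h, but slowed after that. Its libraries held 54.8 and 53.9 CPM at 0 h, 19.04 and 18.6 CPM at 0.5 h, 12.2 and 11.5 CPM at 2 h, 6.97 and 6.00 CPM at 12 h and 0.315 and 0.354 CPM at 24 h, and its largest tested step was the last, -3.63 ± 0.178 on the log2 scale (adjusted p 1.58e-13).

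Transcription factor genes split between the ends of the time course, with 5 early, 0 middle and 5 late. Pax7, a paired box factor of muscle stem cells, held 488 and 483 CPM at 0 h, 380.1 and 374 CPM at 0.5 h, 96.6 and 95.4 CPM at 1 h, 51.1 and 52.2 CPM at 2 h, 15.1 and 22.05 CPM at 12 h and 9.88 and 8.26 CPM at 24 h. Pax7 fell from 0.5 h to 2 h and from 2 h to 12 h, with log2 changes of -2.87 ± 0.0846 and -1.45 ± 0.0976, and its change of -0.94 from 12 h to 21 h did not reach the 2-fold limit. Tbx19, a T-box factor known from the pituitary, went from 48.2 and 51.1 CPM to 3.06 and 3.20 CPM between 0 h and 2 h. Tal1, a helix-loop-helix factor of blood stem cells, measured 6.80 and 5.88 CPM at 0 h and 0.523 and 0.464 CPM at 2 h, and Hoxb8, a homeobox factor of progenitor cells, 6.94 and 6.82 CPM and 1.68 and 1.46 CPM. Jdp2, a partner of AP-1 factors, was at 15.5% of 0 h at 1 h and 23.1% at 6 h. The late factors behaved otherwise. Mybl2, a cell cycle factor of the MYB family, kept 44.1% of its 0 h level at 2 h and 27.4% at 12 h. Tfap4, a helix-loop-helix factor, kept 59.4% and 35.8%, and Etv4, an ETS factor that follows MAP kinase signaling, 78.7% and 28.2%. Mitf, the melanocyte and mast cell factor, was higher before it was lower. It measured 6.21 and 6.40 CPM at 0 h, 5.42 and 6.79 CPM at 0.5 h, 12.4 and 12.9 CPM at 1 h, 11.7 and 11.8 CPM at 2 h, 4.51 and 4.99 CPM at 6 h, 1.29 and 1.83 CPM at 12 h and 0.368 and 0.354 CPM at 24 h. Its 2 h libraries did not overlap those of 0 h, with a log2 difference of 0.89 ± 0.101 that stayed under the 2-fold limit (adjusted p 1.38e-07), and it fell from 2 h to 12 h, with a log2 change of -2.89 ± 0.136.

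**Figure D4:**
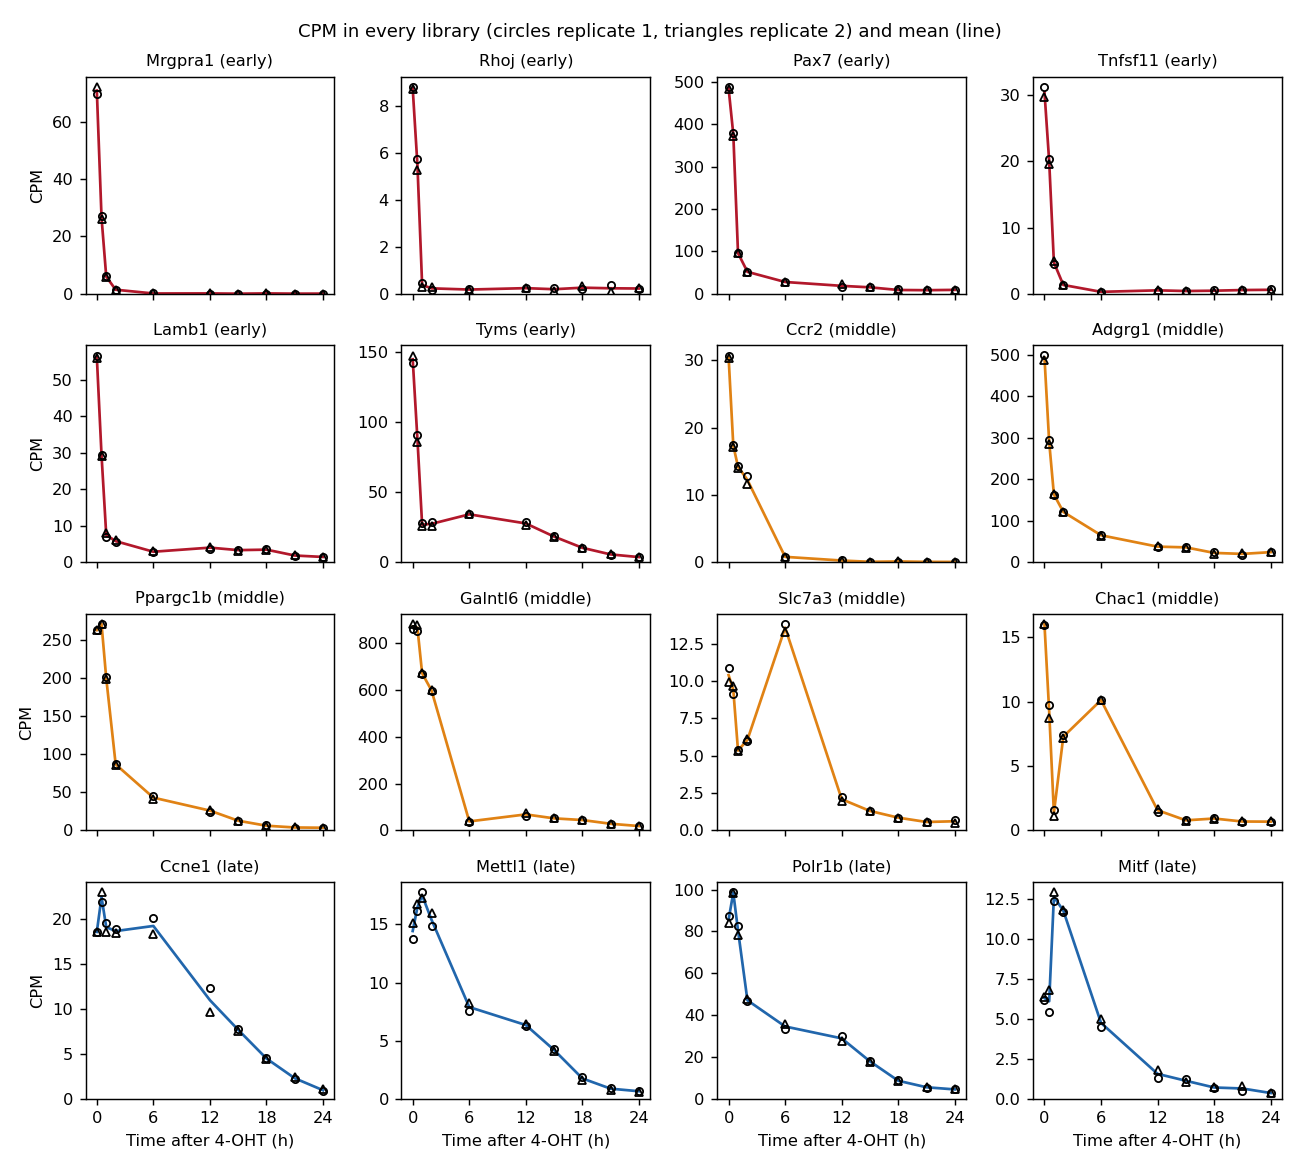
CPM (vertical axis, each panel on its own scale from 0) of 16 genes against hours after 4-OHT, with a circle for replicate 1, a triangle for replicate 2 and a line through the mean. Mrgpra1, Rhoj, Pax7, Tnfsf11, Lamb1 and Tyms dropped by 2 h. Ccr2 had done 60.0% of its fall at 2 h and dropped again by 6 h, and Galntl6 came down most between 2 h and 6 h. Slc7a3 and Chac1 had a second peak at 6 h, and Ccne1, Mettl1 and Mitf came down after 2 h.

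The genes of cell cycle entry, DNA synthesis and repair had the longest median time to 50% of the fall among the groups sorted by role, 10.4 h, with 4 of 5 in the late class. They were mixed, since the late gene Dna2 had already done 58.2% of its fall at 2 h. It was called lower at 2 h than at 0 h (log2 change -1.16 ± 0.0436, adjusted p 2.10e-15). Ccne1 (ENSMUSG00000002068, chr7:38097984-38107534), the cyclin that drives entry into S phase, held 18.6 and 18.6 CPM at 0 h, 21.9 and 23.02 CPM at 0.5 h, 18.9 and 18.5 CPM at 2 h, 20.1 and 18.4 CPM at 6 h, 12.3 and 9.69 CPM at 12 h, 7.77 and 7.60 CPM at 15 h, 4.54 and 4.44 CPM at 18 h, 2.19 and 2.38 CPM at 21 h and 0.841 and 1.06 CPM at 24 h. The libraries overlapped those of 0 h at 6 h and lay below them from 12 h on. Its step from 2 h to 12 h stayed under the 2-fold limit at -0.76 ± 0.0865 (adjusted p 1.78e-07), while that from 12 h to 21 h was -2.02 ± 0.122 (adjusted p 5.28e-12). Ung, the glycosylase that removes uracil from DNA, stood at 11.2 and 10.3 CPM at 0 h, 11.1 and 11.6 CPM at 2 h, 6.04 and 5.55 CPM at 12 h and 0.526 and 0.637 CPM at 24 h, and fell in the last tested step, with a log2 change of -2.87 ± 0.147. E2f8, a repressor of the E2F family that was counted above with the transcription factors, kept 67.6% of its 0 h level at 2 h, 54.9% at 12 h and 11.2% at 21 h. Dctd, a deaminase that supplies the substrate of thymidylate synthase, was at 122% at 1 h and 48.2% at 12 h. The thymidylate synthase gene itself, Tyms, was early by contrast. Its libraries read 142 and 147 CPM at 0 h, 27.9 and 25.5 CPM at 1 h, 28.7 and 25.9 CPM at 2 h, 34.1 and 34.1 CPM at 6 h, 28.5 and 26.7 CPM at 12 h and 3.47 and 3.64 CPM at 24 h. Tyms thus fell from 0.5 h to 2 h (-1.69 ± 0.0574) and again from 12 h to 21 h (-2.10 ± 0.0783), while its log2 difference between 2 h and 12 h was 0.03 ± 0.0618 (adjusted p 0.698).

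Genes for ribosome production, tRNA modification and mitochondrial function lay mostly in the late class, 6 of 7. Polr1b, the second largest subunit of RNA polymerase I, measured 87.2 and 84.01 CPM at 0 h, 98.8 and 98.2 CPM at 0.5 h, 46.6 and 47.5 CPM at 2 h, 30.1 and 27.7 CPM at 12 h and 4.52 and 4.44 CPM at 24 h. It came down after 0.5 h, and of the tested steps the first (-1.07 ± 0.0498) and the last (-2.15 ± 0.0714) passed the test, but not the second (-0.69 ± 0.0540). Mettl1, which methylates guanosine in tRNA, held 13.7 and 15.1 CPM at 0 h, 17.8 and 17.2 CPM at 1 h, 14.8 and 15.9 CPM at 2 h, 6.22 and 6.47 CPM at 12 h and 0.683 and 0.614 CPM at 24 h. Trmt61a, which methylates adenosine in tRNA, had 58.9% of its 0 h level left at 2 h and 27.9% at 12 h. Ifrd2, a ribosome-binding translation regulator, kept 58.2% and 32.2%. Ppargc1b, a coactivator of mitochondrial genes of the PGC-1 family, was a middle gene. It read 263 and 263 CPM at 0 h, 271 and 271 CPM at 0.5 h, 87.4 and 86.1 CPM at 2 h, 24.8 and 27.2 CPM at 12 h and 3.34 and 3.71 CPM at 24 h, and fell in each tested step, with log2 changes of -1.65, -1.72 and -2.52. Its relative Pprc1 kept 51.5% at 2 h and 23.4% at 12 h, and Akap1, which anchors protein kinase A at mitochondria and was a middle gene sorted with the signaling proteins, 39.05% and 19.6%.

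Metabolic and transport genes were spread over the classes, with 7 early, 8 middle and 6 late of 21. Ptgs1, cyclooxygenase 1, was at 10.4% of 0 h at 1 h. Ass1, which joins citrulline and aspartate in arginine synthesis, went from 62.2 and 62.5 CPM at 0 h to 8.59 and 10.03 CPM at 2 h and 2.66 and 2.59 CPM at 12 h. Atp2b4, a plasma membrane calcium pump, held 168 and 166 CPM at 0 h, 172 and 164 CPM at 0.5 h and 13.1 and 12.2 CPM at 2 h, and so passed from its full level to 7.56% of it between 0.5 h and 2 h. Slc7a1, the main uptake carrier of cationic amino acids, stayed at 275 and 269.6 CPM at 2 h and 291 and 287 CPM at 6 h, from 462 and 456 CPM at 0 h, before it read 125 and 138 CPM at 12 h and 15.3 and 15.4 CPM at 24 h. Srm, spermidine synthase, kept 62.5% of its 0 h level at 2 h and 23.1% at 12 h. Slc17a9, which carries ATP into vesicles, Impa2, an inositol monophosphatase, and Gm10384 lay just inside the 24 h limit at 5.95%, 5.97% and 5.97% of 0 h, where Gm32742, Usp43 and Ankrd45 lay just outside at 6.01%, 6.08% and 6.11%. At the other limit, Gm38534, 5830418P13Rik and 4930432E11Rik had 3.06, 3.34 and 3.45 CPM at 0 h, and Scrn1, Gm5922 and Slc27a2, which met the 24 h limit, missed it with 2.87, 2.94 and 2.99 CPM.

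Some genes stood higher at 6 h than at 2 h before they were lost. This comparison was added after the values were seen. In 10 of the 109 both 6 h libraries lay above both 2 h libraries, 8 of these with an adjusted p under 0.01. The share of all genes so ordered is not given here, so the 10 describe this set only and are not read as an excess. Of the 10, Slc7a3 alone passed the 2-fold limit as well, where 3.91% of all genes did. Without replicate 2 of 2 h, or without replicate 1 of 6 h, 2 genes passed it. In the same step 38 genes fell, against 3.26% of all genes. Slc7a3, another carrier of cationic amino acids, measured 10.9 and 9.93 CPM at 0 h, 5.40 and 5.30 CPM at 1 h, 6.00 and 6.13 CPM at 2 h, 13.8 and 13.3 CPM at 6 h, 2.24 and 1.94 CPM at 12 h and 0.709 and 0.519 CPM at 24 h. Its 6 h libraries lay above those of every other time point, and the rise from 2 h was 1.17 ± 0.0792 (adjusted p 1.63e-10). Chac1, which degrades glutathione, went through a low point at 1 h, with 15.96 and 16.04 CPM at 0 h, 9.75 and 8.72 CPM at 0.5 h, 1.60 and 1.14 CPM at 1 h, 7.41 and 7.15 CPM at 2 h, 10.1 and 10.1 CPM at 6 h and 1.44 and 1.70 CPM at 12 h. Trib3, a pseudokinase induced by amino acid and endoplasmic reticulum stress, took a similar course, at 19.6% of 0 h at 1 h, 43.5% at 2 h, 63.3% at 6 h and 9.75% at 12 h. Bcat1, which transfers the amino group of branched-chain amino acids, held 182 and 178 CPM at 0 h, 70.02 and 72.4 CPM at 2 h, 118 and 115 CPM at 6 h and 39.00 and 45.2 CPM at 12 h, with a difference of 0.71 ± 0.0529 from 2 h to 6 h (adjusted p 6.52e-10). Phgdh, the entry enzyme of serine synthesis, was at 47.9% of 0 h at 2 h and 62.1% at 6 h, a log2 difference of 0.38 ± 0.0489 (adjusted p 1.88e-06). The others were Cadps, Fnip2, Jdp2, Tyms and Slc7a1. All but Fnip2 and Tyms lay lower at 12 h than at 2 h.

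Besides Mitf, 4930432E11Rik, Ccnb1ip1, Mettl1, Ung and Ccne1 stood above their 0 h mean at 2 h. In Mitf, Ccnb1ip1 and 4930432E11Rik both 2 h libraries exceeded both 0 h libraries. Ccnb1ip1, a ubiquitin ligase needed for meiotic crossing over, read 16.00 and 16.1 CPM at 0 h, 25.5 and 24.4 CPM at 1 h, 24.1 and 26.7 CPM at 2 h, 9.18 and 9.48 CPM at 12 h and 0.841 and 0.850 CPM at 24 h. The gene model 4930432E11Rik reached 8.18 and 6.20 CPM at 2 h from 3.51 and 3.39 CPM at 0 h and was at 1.26 and 1.40 CPM at 6 h.

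Gene length spans a wide range in the set. The longest gene, Galntl6 (ENSMUSG00000096914, chr8:57774052-58912640), a glycosyltransferase of the GalNAc transferase family that spans 1138589 bp, held 860.0 and 881 CPM at 0 h, 853 and 877 CPM at 0.5 h, 669 and 673 CPM at 1 h, 595 and 599.9 CPM at 2 h, 37.9 and 39.1 CPM at 6 h and 62.7 and 74.2 CPM at 12 h. Only 32.1% of its fall was done at 2 h, but 97.7% at 6 h, and its step from 2 h to 12 h was -3.11 ± 0.0575 (adjusted p 5.12e-20). Among the early genes, the 10 over 100 kb had done a median of 6.49% of the fall at 0.5 h (from -2.24% to 52.4%), beside 35.3% for the 31 genes of 10 to 100 kb (1.56% to 62.6%) and 38.6% for the 12 shorter ones (1.80% to 72.9%). These ranges overlapped, and among the long genes Myo1e, a myosin, Ttll11, a tubulin glutamylase, and Ntm, a neural adhesion protein, had done 52.4%, 36.5% and 32.4%. By 1 h the medians were 68.8%, 79.1% and 70.9%, and by 2 h 92.7%, 92.1% and 86.4%. Enpp6 (ENSMUSG00000038173, chr8:46986887-47096762), a choline phosphodiesterase gene of 109876 bp, had done 16.8% of its fall at 1 h and 94.3% at 2 h. Its libraries read 69.8 and 65.9 CPM at 0.5 h, 55.5 and 55.5 CPM at 1 h and 5.07 and 5.15 CPM at 2 h. The short gene 1700011L03Rik, whose start site lies 38.1 kb from that of Enpp6, had done 39.7% at 1 h and 98.6% at 2 h. These length groups are a description with no test. Counts were per gene with intronic reads included, and the part of this choice was not tested.

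**Figure D5:**
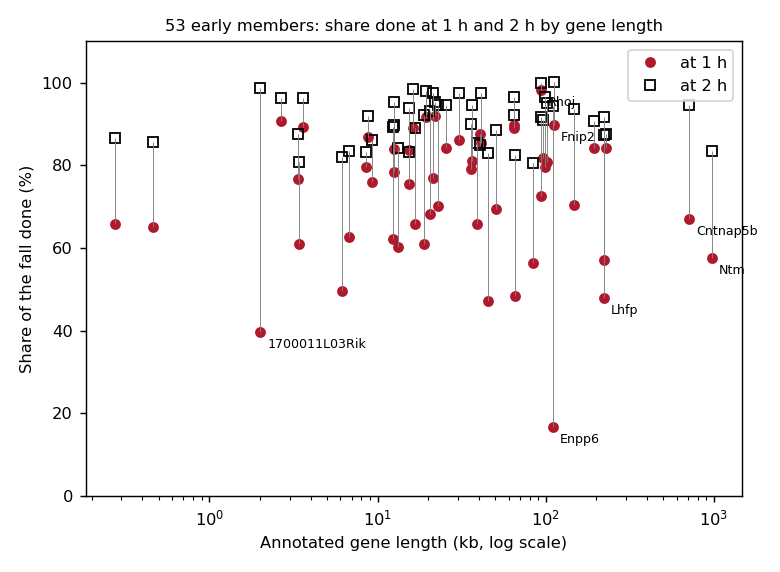
Share of the fall done at 1 h (filled circles) and 2 h (open squares) for the 53 early genes (vertical axis, %) against annotated gene length (horizontal axis, kb, log scale), with a line joining the points of a gene. Enpp6 and 1700011L03Rik lie lowest at 1 h, and all genes reach at least 80% at 2 h because the class was defined so.

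Of the 109 genes 87 were protein coding (79.8%), while 93.0% of expressed genes with an annotation were. The early class had the smallest share of coding genes, 37 of 53, and held 12 of the 15 long intergenic RNAs. The median gene length of the set was 22919 bp and that of expressed genes 26167 bp. The median level at 0 h was 18.6 CPM, against 34.5 CPM in all expressed genes, and CPM does not allow for gene length. Some genes lay near each other. Start sites of 7 pairs were within 200 kb, and in 4 of them both genes were early, with the immunoglobulin heavy chain V segments Ighv7-3 and Ighv15-1 4.67 kb apart, Gm13417 and Gm38383 21.9 kb apart, Gm13431 and Ptgs1 13.6 kb apart, and Enpp6 and 1700011L03Rik as above. Ifrd2 and Lsmem2, both late, lay 9.43 kb apart, and so did Fam83e and Kcnj14, at 104 kb. Ephb4, a middle gene, and Zan, an early gene, overlap on opposite strands. In the annotation 41 genes of the set overlap a gene on the other strand and 19 a gene on the same strand, and since the strand setting of the counting is not given in the sources used here, counts of such genes are uncertain.

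To show what the promoters look like, 4 are printed, those of the 2 highest and the 2 lowest shares done at 2 h among named genes whose RefSeq start lay within 500 bp of the annotated start, which left out Ccnb1ip1 and Mettl1. They come from RefSeq, build GRCm38.p6, and run from 250 bases before to 50 after the start, on the strand of the gene from the 5′ to the 3′ end. Capitals mark GGGAA or its reverse complement TTCCC, the core of an IKZF1 motif.
Fnip2 (chr3:79567630-79567929, minus strand): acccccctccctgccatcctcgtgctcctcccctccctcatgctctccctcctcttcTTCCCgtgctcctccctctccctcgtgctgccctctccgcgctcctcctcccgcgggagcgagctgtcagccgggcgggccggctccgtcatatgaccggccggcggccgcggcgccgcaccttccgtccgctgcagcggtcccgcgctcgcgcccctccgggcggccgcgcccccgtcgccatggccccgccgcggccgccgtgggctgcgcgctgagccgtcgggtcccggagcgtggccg
Rhoj (chr12:75308063-75308362, plus strand): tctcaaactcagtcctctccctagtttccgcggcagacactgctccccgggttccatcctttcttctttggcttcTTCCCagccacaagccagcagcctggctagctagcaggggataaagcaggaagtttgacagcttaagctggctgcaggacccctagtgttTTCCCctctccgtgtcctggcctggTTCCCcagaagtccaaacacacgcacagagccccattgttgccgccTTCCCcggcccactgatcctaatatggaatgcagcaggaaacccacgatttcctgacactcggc
Ung (chr5:114130185-114130484, plus strand): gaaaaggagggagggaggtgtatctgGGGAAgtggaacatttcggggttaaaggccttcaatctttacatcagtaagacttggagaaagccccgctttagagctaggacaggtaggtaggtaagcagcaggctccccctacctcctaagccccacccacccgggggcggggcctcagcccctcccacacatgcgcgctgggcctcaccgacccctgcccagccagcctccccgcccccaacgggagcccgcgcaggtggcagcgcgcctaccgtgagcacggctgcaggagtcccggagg
Mitf (chr6:97806808-97807107, plus strand): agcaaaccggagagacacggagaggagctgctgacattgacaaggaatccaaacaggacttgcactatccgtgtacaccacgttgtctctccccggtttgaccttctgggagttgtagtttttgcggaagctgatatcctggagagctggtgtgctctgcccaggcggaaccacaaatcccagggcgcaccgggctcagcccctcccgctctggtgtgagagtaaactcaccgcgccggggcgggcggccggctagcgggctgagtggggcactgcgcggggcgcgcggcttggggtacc

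The first pair belongs to early genes and the second pair to late genes. Fnip2 holds 1 match, Rhoj 4, Ung 1 and Mitf 0. A promoter was matched for 75 of the 109 genes. GGGAA on either strand was found in 53 of these (70.7%), and in 62.4% of all 27025 promoters of this length. By class it was in 29 of 37 early promoters (78.4%), 11 of 16 middle (68.8%) and 13 of 22 late (59.1%). The longer form TGGGAA, which contains GGGAA, was in 30.7% of the set and 25.5% of all promoters, and in 40.5% of the early ones. The promoters matched here, unlike the printed ones, were not limited by distance from the annotated start. Early windows far from it, such as those of Ntm (549689 bp), Atp2b4 (47294 bp) and Mmrn1 (19341 bp), held GGGAA. Of late ones, that of Pprc1 (11653 bp) did and that of Ccnb1ip1 (12004 bp) did not. The shares by class therefore rest partly on such windows, and a difference between classes was not tested. A match is a run of letters in this window and not a measured binding site.

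The pathways of these genes hold others that did not meet the limits. For scale, 5.41%, 4.63% and 6.49% of all genes tested fell in the 3 steps in turn, and 5.4%, 7.85% and 5.19% rose. The counts of a list include its genes in the set, which were chosen for their fall. Among 17 tested genes of serine, one-carbon and thymidylate synthesis, 3 of them in the set, 2 fell from 0.5 h to 2 h and 14 from 12 h to 21 h. The list's 14 other genes lay at a median of 13.2% of 0 h at 24 h, such as Rrm2, a subunit of ribonucleotide reductase, at 6.77% and Mthfd2, a mitochondrial folate enzyme, at 9.18%. Of the 18 genes of purine and pyrimidine synthesis, none of them in the set, 8 fell and 2 rose from 12 h to 21 h. Ctps, CTP synthase 1, came nearest, at 6.53% of 0 h at 24 h. Among 34 genes of ribosome biogenesis, RNA polymerase I and tRNA modification, 4 of them in the set, 6, 2 and 20 fell in the 3 steps in turn. In each step 0 rose, though Wdr12 lay at 134% of 0 h at 24 h. Of 18 genes of the G1/S cyclin and E2F/MYB list, 4 of them in the set, 11 fell from 12 h to 21 h. From 0.5 h to 2 h 0 fell and Mybl1 rose. Mybl1 and Ccnd3 lay at 178% and 364% of 0 h at 24 h. In the amino acid list of 21 genes, 6 of them in the set, 2, 8 and 8 fell. Among the rest Asns, asparagine synthetase, lay at 7.63% of 0 h at 24 h and Asl at 305%.

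Genes of the matrix and cytokine lists went in both directions in the first step and the second. Of 33 tested integrin, laminin, collagen and other matrix genes, 6 fell and 4 rose from 0.5 h to 2 h, 3 fell and 4 rose from 2 h to 12 h, and 1 fell from 12 h to 21 h. Lamb1, Mmrn1, Igfbp4 and Col5a3 were in the set, while Itga4, an integrin chain of lymphocytes, was at 438% of 0 h at 24 h. Of 18 chemokine, cytokine and TNF family genes, 5 fell and 2 rose in the first step, and the interleukin 7 receptor gene Il7r was at 266% of 0 h at 24 h. Among 17 developmental and lineage factors, 10 fell and 0 rose in the first step, with a median log2 change of -1.44. In the second step 3 fell and 2 rose, and in the last 3 fell and 1 rose. Of the 11 not in the set, only Hoxb3 and Hoxb4, neighbors of Hoxb8 in its cluster, reached 3 CPM at 0 h, with 31.8 and 13.3 CPM. Both were lower at 24 h, at 24.4% and 28.4% of 0 h. The 11 lay at a median of 134% of 0 h at 24 h and ran from 3.08% in Pax8 to 289.7% in Tbx15. That median and range rest on genes with few counts, such as Pax8 and Tbx15 at 1.62 and 2.16 CPM at 0 h. In the sprouty, spred and dual-specificity phosphatase list, 4, 2 and 6 of 15 genes fell, and Dusp10 rose in the second step. The 12 not in the set lay at a median of 46.96% of 0 h at 24 h, with Dusp7 and Spry1 at 7.66% and 8.13%, and Dusp10, Dusp1 and Dusp5 at 257%, 309% and 323%. In the list of PGC-1 coactivators and mitochondrial anchors, 4, 2 and 3 of 8 fell, Ppargc1a among them in the first step, and 0 rose in each. The median log2 change of all genes tested was between -0.02 and 0.02 in these steps, and 5.41%, 4.63% and 6.49% of them fell and 5.4%, 7.85% and 5.19% rose in turn. Small counts in a list are therefore not read as a result about it. The lists were drawn up with results of these data known, so their counts are no independent evidence of direction.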

How the data were processed

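Chromatin-associated RNA of 20 samples (10 time points, 2 replicates each) was used. The authors deposited raw counts per gene. Per the submitters' processing notes, CASAVA 2.17, nf-core/rnaseq 1.3 and featureCounts were among the tools and GRCm38 was the build. The study's methods name STAR as the aligner and say that counts were per gene with reads in introns included. The strand setting is not given in the sources used here. CPM was computed from column totals. Gene positions, lengths and types came from the GENCODE annotation of GRCm38, and promoters from RefSeq.

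Samples were grouped by the time in their labels. One edgeR (4.0.16, R 4.3.3) quasi-likelihood fit with TMM scaling covered all 20 libraries, with time point as a factor, on 16601 genes, those that reached 10 counts in 2 or more libraries. P-values were adjusted by Benjamini-Hochberg over these genes, and a call needed an adjusted p under 0.01 and a change above 2-fold. On simulated counts of 2 h against 0.5 h over 16601 genes, 50 of 50 genes changed 2.5-fold were recovered, as were all those changed 4-, 10- and 20-fold, with 0 false calls. The simulation kept other means flat over time and changed only genes with a mean of at least 3 CPM. It covered that step alone, so it gives no measure of false calls in steps with 12 h or 21 h, where replicates differed more. DESeq2 1.42.0 and the other alternatives are compared in the closing section. A floor of 3 counts, which covers counting error only, was used to mark genes near 0 at 24 h, and 6 genes were at or under it in both libraries.

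The 109 genes and the gene lists were chosen with earlier results of these data known, and the roles were assigned after the genes were known. Genes named in the text were taken from the 10 with the lowest 24 h percent, the 10 with most counts at 0 h, the 6 with the largest and the 6 with the smallest share done at 2 h, the 6 with the smallest share at 12 h, those in a gene list and those nearest the limits. Samd4, 1700012I11Rik, Gm20755 and Gm48727 fell under these rules too but are not described. Others (among them Ptgs1, Rab26, Myo1e, Ttll11, Ntm, Enpp6, Trib3, Ephb4, Cntnap5b, Zan, Lsmem2, Cadps, Dna2 and genes of the lists outside the set) were named after their values were seen. The main fit had no replicate block. The deviations of same-numbered libraries had a mean correlation of 0.03 (from -0.68 to 0.48) over 45 pairs of time points, with 18 pairs above 0.1. This mean cannot show whether replicate numbers paired the samples, since single pairs went in both directions.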

Additional observations from a re-analysis of the deposited data

How the results depend on the processing

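No result changed direction under the alternatives run. Leaving out each library gave 72 to 73 genes lower at 2 h than at 0.5 h, 53 to 55 lower at 12 h than at 2 h, 55 to 64 lower at 21 h than at 12 h, 76 to 77 and 104 to 105 lower at 2 h and at 12 h than at 0 h, 33 to 35 lower and 1 to 2 higher at 6 h than at 2 h (2 without replicate 2 of 2 h or replicate 1 of 6 h). Without either replicate, the set held 104 to 116 genes, the median share was 75.5% to 78.2% at 2 h and 89.5% to 92.0% at 12 h, and the classes held 51 to 52 early, 24 to 29 middle and 29 to 33 late genes. A filter of 10 counts in every library left 67 of the 109 genes to test by its construction, and 42, 31, 46, 63 and 16 were then lower at 2 h than at 0.5 h, 12 h than at 2 h, 2 h than at 0 h, 12 h than at 0 h and 6 h than at 2 h. With the replicate block these counts were 72, 54, 77, 105 and 38, and 61 at 21 h against 12 h, so it changed no count by over 1.5 times. Class limits of 70% gave 38 middle and 13 late genes, and limits of 90% gave 31 early and 50 late. TGGGAA was in 30.7% and GGAA in 96% of promoters, against 70.7% for GGGAA. The set held 84 genes under a 24 h limit of 5% or under TMM, 82 with DESeq2 size factors, 131 under a limit of 7%, and 158 or 92 with a 0 h minimum of 1 or 5 CPM. The remaining 107 values stayed within the limits of change set for them, as did 2994 of the values of single genes. The other single-gene values comprised 63 that moved and 39 calls that were lost. Counts of a few reads at 24 h limit how low a level could be measured.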
